A study of Mus musculus with 768 samples.

Results

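The genes described here encode signals between axon and glia, those of the neuregulin-ErbB pathway and of the Lgi4-Adam22 pair: *Erbb2*, *Erbb3*, *Nrg1*, *Adam17*, *Errfi1*, *Lgi4* and *Adam22*. They were chosen by name, and their symbols were looked up for the mouse gene identifiers of the count table. All 7 were found among its 25700 genes. The table is of single Schwann cells (SCs), which ensheathe the axons of peripheral nerves, taken from the sciatic nerve of mice at postnatal day 60 and sequenced by Smart-Seq2. The mice were P0Cre, Rosa26-YFP and βAct-DsRed triple transgenic on a C57bl/6J background, so that Cre driven by the promoter of the myelin protein zero gene switched on YFP in the SC lineage and all cells carried DsRed. YFP-positive cells were sorted singly into 2 plates of 384 wells, and each plate held cells pooled from 2 male and 2 female mice. There was 1 group and no treatment, so the comparison is between the classes of SCs found on both plates.

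Neuregulin 1 on the axon binds ERBB3 on the SC, and ERBB3, which has almost no kinase activity of its own, signals through its partner ERBB2 to the MAP kinase and phosphoinositide 3-kinase pathways. This signal is known to keep SC precursors alive and, in the nerve after birth, to set how much myelin an axon receives. LGI4 is secreted by SCs and binds ADAM22 on the axon, and loss of either is known to delay radial sorting and myelination in peripheral nerve.

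In GENCODE M21 (build GRCm38), *Erbb2* lies on chromosome 11 from 98412470 to 98437716 (plus strand) and *Erbb3* on chromosome 10 from 128567523 to 128589652 (minus strand). *Nrg1* spans chromosome 8 from 31814551 to 32884029 (minus strand), *Adam17* chromosome 12 from 21323509 to 21373632 (minus strand), and *Errfi1* chromosome 4 from 150853919 to 150868892 (plus strand). *Lgi4* lies on chromosome 7 from 31059342 to 31070935 (plus strand) and *Adam22* on chromosome 5 from 8072352 to 8368160 (minus strand). Every one of them is protein coding, and reads anywhere in their exons were counted. *Lgi4* shares 2059 of its 4584 exon bases with *Fxyd3*, which lies on the other strand. The overlap of *Adam17* with *Iah1* is 311 bases and that of *Erbb2* with *Mien1* 9 bases, while *Erbb3*, *Nrg1*, *Errfi1* and *Adam22* overlap no exon of another gene. Smart-Seq2 libraries do not mark the strand, so a read from shared bases cannot be given to either gene.

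Of the 768 cells, 674 had 1500 or more detected genes and were kept. Clusters were built without the 7 genes and the wider pathway list. They gave 225 myelinating-like cells (mSC-like, 153 and 72 on plates 1 and 2). Another 421 were non-myelinating, nm(R)SC-like cells (called Remak-like below, 171 and 250 on plates 1 and 2). The name is weakest for cluster 2, with 131 of them, where the mean standardised level of the non-myelinating markers was 0.050. It was 0.476 and 0.946 in clusters 0 and 1 of this class. In cluster 2 that of the myelinating markers was -0.558, and 6 of the 9 non-myelinating markers reached 50 CPM. The remaining 28 cells, led by cell-cycle genes, were left unnamed by a rule on depth and leading genes. The 11 markers of myelinating SCs summed to 72720 to 74900 CPM (reads scaled to a common total) in the mSC-like sums and to 6850 to 7419 CPM in the Remak-like sums. *Pmp22* alone gave 60920 and 58190 CPM of the mSC-like sums. The 9 markers of non-myelinating SCs summed to 102 to 198 CPM and 2675 to 3523 CPM, with *Gap43* at 1.55 and 0.00649 CPM in Remak-like cells. These 2 lists also named the clusters and were not left out of clustering, so their contrast is no independent check. The 4 general SC markers all reached 50 CPM in both classes on both plates. Markers of 5 other lists (endothelial, immune, mural, neuronal and cell-cycle genes) each summed to under 52 CPM in both classes. The fibroblast list summed to 104 to 215 CPM in mSC-like and 303 to 698 CPM in Remak-like cells, almost all of it *Col1a1*, with *Pdgfra* between 0 and 0.181 CPM. The perineurial list summed to 215 to 324 CPM in both classes, most of it *Itgb4* (168 to 303 CPM). *Cldn1* was at 2.71 to 7.98 CPM and *Msln* at 0 CPM. Depth differed between plates, with a median of 158700 reads per kept cell on plate 1 and 452500 on plate 2. Detected genes per kept cell went the other way, with medians of 3442 and 2295.

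Counts were summed per plate and class, and levels were set beside each other between genes as TPM, which divide reads by exon length before scaling. *Lgi4* stood first in both classes. In Remak-like cells it was at 287 TPM on plate 1 and 465 TPM on plate 2, followed by *Erbb3* (136 and 104 TPM), *Erbb2* (86.0 and 62.6 TPM), *Adam17* (36.8 and 18.2 TPM) and *Adam22* (4.23 and 10.3 TPM). *Nrg1* (1.39 and 1.18 TPM) and *Errfi1* (0.0685 and 3.10 TPM) came last, and their ranges overlapped. In mSC-like cells *Lgi4* was at 121 and 90.3 TPM, *Erbb3* at 47.1 and 52.9 TPM, *Erbb2* at 26.5 and 26.4 TPM and *Adam17* at 22.9 and 28.5 TPM. The ranges of *Erbb2* and *Adam17* overlapped there. Below them, *Errfi1* was at 11.8 and 14.5 TPM, *Adam22* at 3.44 and 0.621 TPM, and *Nrg1* at 0.186 and 0.346 TPM. The *Lgi4* level includes reads of the bases it shares with *Fxyd3*.

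**Figure D1:**
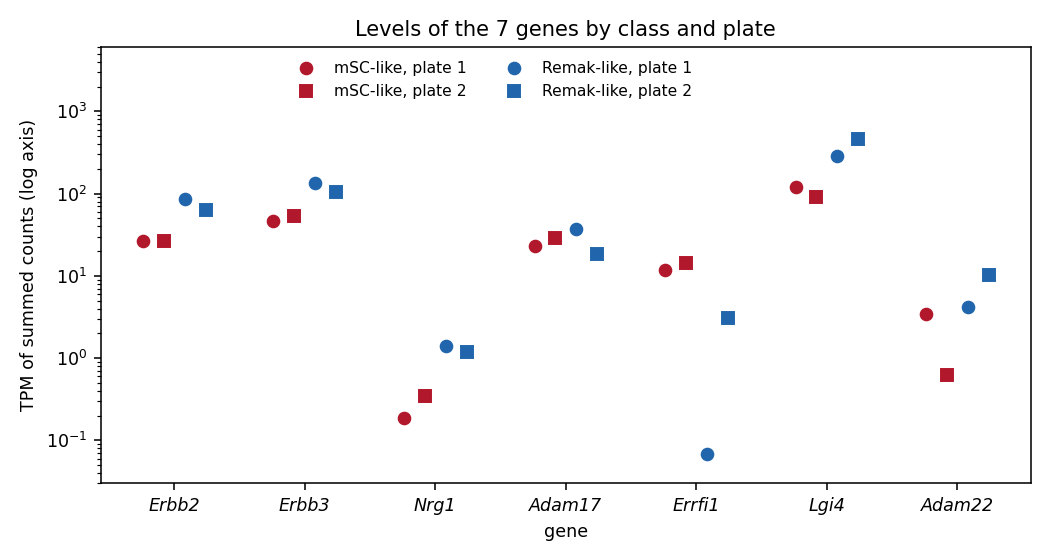
Level of each of the 7 genes in TPM (log axis) in the summed counts of mSC-like (red) and Remak-like (blue) cells, with a circle for plate 1 and a square for plate 2. *Erbb2*, *Erbb3*, *Nrg1*, *Lgi4* and *Adam22* were lower in mSC-like cells on both plates, *Errfi1* was higher, and the classes overlapped for *Adam17*.

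The receptor genes lay lower in mSC-like than in Remak-like cells on both plates, without passing the test. *Erbb3*, the receptor that binds neuregulin, was at 125 and 128 CPM in mSC-like and at 344 and 245 CPM in Remak-like cells on plates 1 and 2. The classes did not overlap, with means of 126 ± 2.36 and 294 ± 70.0 CPM (SD, n = 2 plates), and the log2 ratio of mSC-like over Remak-like was -1.02 ± 0.38 (SE) in edgeR's quasi-likelihood test (Benjamini-Hochberg adjusted p = 0.268). *Erbb2*, the signalling partner, was at 60.8 and 55.3 CPM in mSC-like and at 188 and 127 CPM in Remak-like cells. These plates did not overlap either, with means of 58.1 ± 3.86 and 158 ± 43.2 CPM and a log2 ratio of -1.23 ± 0.44 (adjusted p = 0.221). The reads of these genes came from few cells. On plate 2, 1 Remak-like cell held 30.0% of the *Erbb2* reads of that class and 4 cells held at least 50% of them, and with the top cell left out of each sum the log2 ratio of *Erbb2* was -1.0 ± 0.53.

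Among individual cells thinned to 100000 reads, the median of *Erbb3* was 1 read in mSC-like and 20 reads in Remak-like cells on plate 1, and 0 and 1 reads on plate 2. The largest value was 214 and 82 reads in the mSC-like cells of plates 1 and 2, and 144 and 417 reads in the Remak-like cells. *Erbb2* had a median of 0 reads in mSC-like cells of both plates, with 62 of 98 and 58 of 71 cells at 0. In Remak-like cells, 49 of 113 and 192 of 241 cells had no *Erbb2* read. Both genes were therefore read in a part of the cells of each class at this depth, and the values of the classes overlapped cell by cell.

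**Figure D2:**
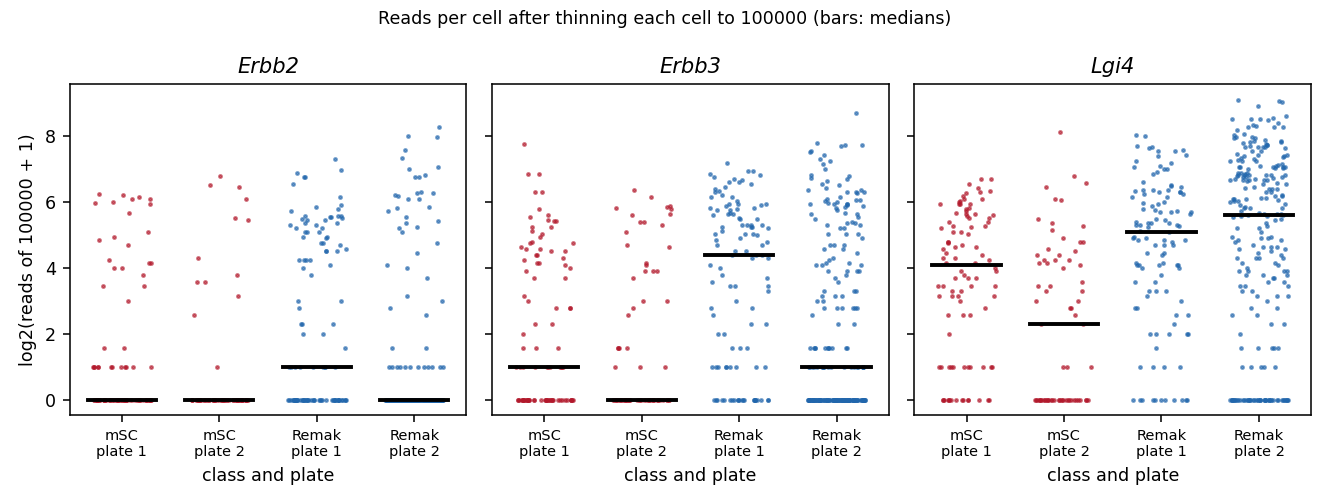
Reads of *Erbb2*, *Erbb3* and *Lgi4* in each cell after thinning to 100000 reads, as log2(reads + 1), in mSC-like (red; 98 and 71 cells) and Remak-like cells (blue; 113 and 241 cells) by plate, with black bars at the medians. Many cells of each class sit at 0 for *Erbb2* and *Erbb3*, and *Lgi4* has a median above 0 in all 4 sets of cells.

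*Nrg1*, which encodes the ligand, was near the floor of these data. It was at 0.845 and 1.44 CPM in mSC-like cells, from 26 and 78 reads, and at 6.04 and 4.75 CPM in Remak-like cells, from 234 and 732 reads. Reads of *Nrg1* were present in 5 of 153 and 1 of 72 mSC-like cells and in 11 of 171 and 7 of 250 Remak-like cells. The log2 ratio was -2.09 ± 2.27 (adjusted p = 0.842), and with the top cell of each sum left out it was -6.15 ± 3.26 (adjusted p = 0.407). In the mSC-like class 1 cell held 80.8% of the reads on plate 1, and all 78 reads on plate 2 came from 1 cell. The ratio of -6.15 thus rests on mSC-like sums with almost no reads left.

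*Adam17*, a protease that sheds neuregulins and that is known to restrain myelination when it cuts neuregulin 1 type III, showed no common direction. On plate 1 the mSC-like sum had 72.0 CPM and the Remak-like sum 111 CPM, and on plate 2 these were 81.9 and 50.8 CPM. The higher class thus changed with the plate, and the log2 ratio was 0.22 ± 0.53 (adjusted p = 0.970). *Iah1*, which shares exon bases with it, was at 55.0 and 68.4 CPM in mSC-like and at 269 and 201 CPM in Remak-like cells.

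*Errfi1* encodes an inhibitor of the ErbB kinases that is induced by growth factor signals and by stress. It was the one gene of the 7 whose plates were higher in mSC-like cells without overlap, at 18.6 and 20.9 CPM against 0.103 and 4.34 CPM in Remak-like cells. On plate 1 the Remak-like value rested on 4 reads in 2 of 171 cells. The log2 ratio was 4.91 ± 2.14 (adjusted p = 0.361), and it was 3.22 without the plate block. It was 1.94 without the clusters that had none of their own markers among their 10 leading genes. For these genes that setting left out the mSC-like cluster led by *Mfap5* (117 cells), although 11 myelinating markers reached 50 CPM in it. Within plates, on the log2(CPM + 1) scale, the classes differed by 4.15 on plate 1 and by 2.04 on plate 2. Reads of *Errfi1* were present in 19 of 153 and 13 of 72 mSC-like cells and in 9 of 250 Remak-like cells of plate 2. The top cell held 28.1% and 30.7% of its reads in the mSC-like sums and 48.6% in the Remak-like sum of plate 2.

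*Lgi4*, the secreted ligand of the other pair, had the most reads of the 7 genes. It was at 244 and 167 CPM in mSC-like and at 553 and 832 CPM in Remak-like cells, so every Remak-like value was above every mSC-like value. The means were 205 ± 54.7 and 693 ± 197 CPM (SD, n = 2 plates), with a log2 ratio of -1.57 ± 0.41 (adjusted p = 0.0765). Within plates, on the log2(CPM + 1) scale, mSC-like cells differed from Remak-like cells by -1.18 on plate 1 and by -2.32 on plate 2. The difference did not pass the limit of 0.05 in this fit and passed it in 3 of 12 alternative settings: DESeq2 (adjusted p = 0.00538), sums of cells thinned to 100000 reads (adjusted p = 0.0485 in edgeR) and classes without the clusters that had none of their own markers among their leading genes (adjusted p = 0.0245 in edgeR). The last of these, chosen after seeing the data, left out the *Mfap5* cluster, where *Lgi4* was at 301 and 234 CPM. The mSC-like cluster that stayed had 130 and 131 CPM. Over the 12 settings the adjusted p ran from 0.00538 to 0.246 and the log2 ratio from -2.21 to -1.19. The call for *Lgi4* is also uncertain because *Fxyd3* moved with it, at 351 and 234 CPM in mSC-like and 497 and 681 CPM in Remak-like cells. Of the cells with *Fxyd3* reads, 140 of 143, 154 of 157, 41 of 41 and 205 of 205 also had *Lgi4* reads. These are mSC-like and Remak-like cells of plate 1, then of plate 2. Among all cells of the same sets, 141 of 153, 157 of 171, 44 of 72 and 210 of 250 had *Lgi4* reads. The part of the shared bases in the *Lgi4* difference was not tested.

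*Adam22*, which encodes the receptor of LGI4, was read in few cells. It was at 21.7 and 3.58 CPM in mSC-like and at 25.5 and 57.8 CPM in Remak-like cells. The plates did not overlap, but the highest mSC-like and the lowest Remak-like value lay close together, and the log2 ratio was -1.94 ± 1.27 (adjusted p = 0.634). In the mSC-like cells 1 cell held 56.6% of the reads on plate 1 and 99.0% on plate 2. With the top cell left out of each sum the log2 ratio was -4.81 ± 2.41 (adjusted p = 0.368). The mSC-like sum of plate 2 then had almost no reads left. Reads were present in 12 of 153 and 3 of 72 mSC-like cells and in 32 of 171 and 28 of 250 Remak-like cells.

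Across all genes, edgeR's quasi-likelihood test with the plate as a block called 551 of 13178 genes tested (4.18%) at an adjusted p under 0.05, of which 282 (2.14%) were higher in mSC-like and 269 (2.04%) in Remak-like cells. All 7 genes passed the filter on low counts, and 0 were called. At an unadjusted p under 0.05 there were 4 of the 7 (*Erbb2*, *Erbb3*, *Errfi1* and *Lgi4*), where 13.4% of all genes tested were. In 5 of the 7 the Remak-like plates lay above the mSC-like plates without overlap and in 1 below them, and 41.9% of all genes tested had classes without overlap, 26.9% with Remak-like above. The median log2 ratio of the 7 was -1.23, and that of all genes tested was -0.12. DESeq2, which called 13.1% of all genes tested, called 2 of the 7, *Lgi4* and *Errfi1* (adjusted p = 0.00219). Thinned sums, with 6.51% of all genes tested called, gave *Lgi4* alone. So did the classes without the clusters that had no own marker among their leading genes, with 2.46% called. For *Lgi4*, that setting left out the *Mfap5* cluster. With 2 plates, 1 residual degree of freedom is left per gene, and a ratio that misses the limit does not show that the classes were alike.

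**Figure D3:**
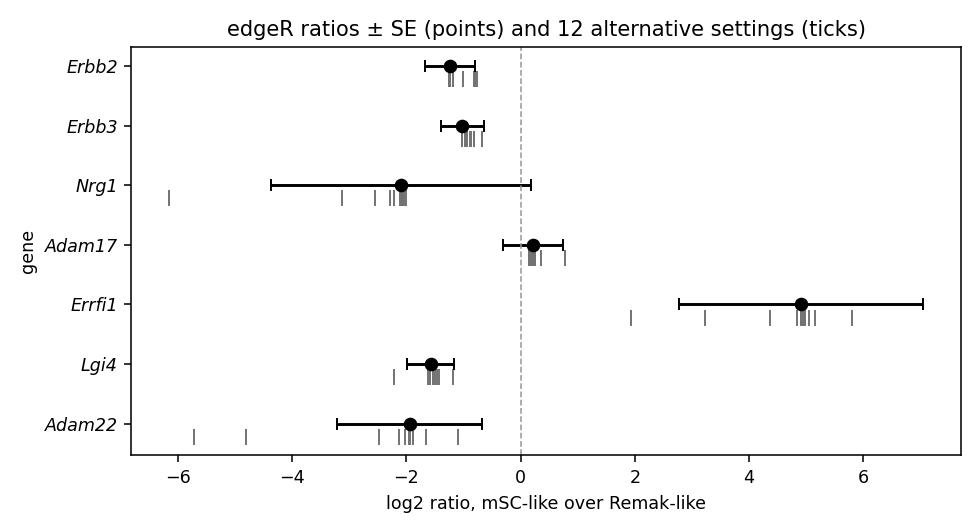
Log2 ratio of mSC-like over Remak-like cells for each gene, with points for the edgeR fit (bars: SE) and grey ticks for the 12 alternative settings. No sign changed in any of them, and the ticks of *Nrg1*, *Errfi1* and *Adam22* spread the most, down to -6.15 for *Nrg1*. That tick rests on mSC-like sums with almost no reads left.

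Detection was compared at equal depth, as the share of cells with 5 or more reads after each cell was thinned to 100000 reads, with exact Clopper-Pearson 95% intervals that cover counting error only. Cells under that depth were left out, which kept 98 and 71 mSC-like and 113 and 241 Remak-like cells. *Lgi4* was detected in 72.4% (62.5 to 81.0%) of mSC-like and 80.5% (72.0 to 87.4%) of Remak-like cells on plate 1, and the intervals overlapped. On plate 2 the shares were 47.9% (35.9 to 60.1%) and 74.7% (68.7 to 80.0%), without overlap. *Erbb3* was detected in 40.8% (31.0 to 51.2%) and 65.5% (56.0 to 74.2%) of the cells on plate 1, and in 33.8% (23 to 46.0%) and 38.6% (32.4 to 45.0%) on plate 2. Its classes were thus apart on plate 1 and overlapped on plate 2. *Erbb2* was detected in 22.4% (14.6 to 32.0%) and 43.4% (34.1 to 53.0%) on plate 1, while on plate 2 the shares of 16.9% (9.05 to 27.7%) and 14.5% (10.3 to 19.6%) overlapped and stood in the other order.

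*Adam17* stood above *Erbb2* in 3 of these 4 sets of cells, and *Adam22*, *Errfi1* and *Nrg1* were each detected in under 12% of the cells of any set. *Adam17* was detected in 27.6% and 38.1% of mSC-like and Remak-like cells on plate 1 and in 21.1% and 21.6% on plate 2. *Adam22* was detected in 3.06% and 11.5% on plate 1 and in 1.41% and 8.30% on plate 2. *Errfi1* was detected in 7.14% (2.92 to 14.2%) of mSC-like cells on plate 1 and in 0 of 113 Remak-like cells, which allows a share of up to 2.65% by a limit of 3 cells and up to 3.21% by the exact interval, and in 8.45% (3.17 to 17.5%) and 1.25% (0.257 to 3.6%) on plate 2. *Nrg1* was detected in 1.02% and 5.31% on plate 1, and in 0 of 71 mSC-like cells (up to 4.22% by the limit of 3 cells and 5.06% by the exact interval) and 0.830% of Remak-like cells on plate 2. Unthinned, at 1 or more reads, *Lgi4* was found in 92.2% and 91.8% of mSC-like and Remak-like cells on plate 1 and in 61.1% and 84.0% on plate 2. The same shares were 69.3% and 83.6%, and 55.6% and 66.0%, for *Erbb3*, and 47.7% and 62.0%, and 29.2% and 30.4%, for *Erbb2*. For *Adam17* they were 46.4% and 66.1% on plate 1 and 50% and 40.4% on plate 2.

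**Figure D4:**
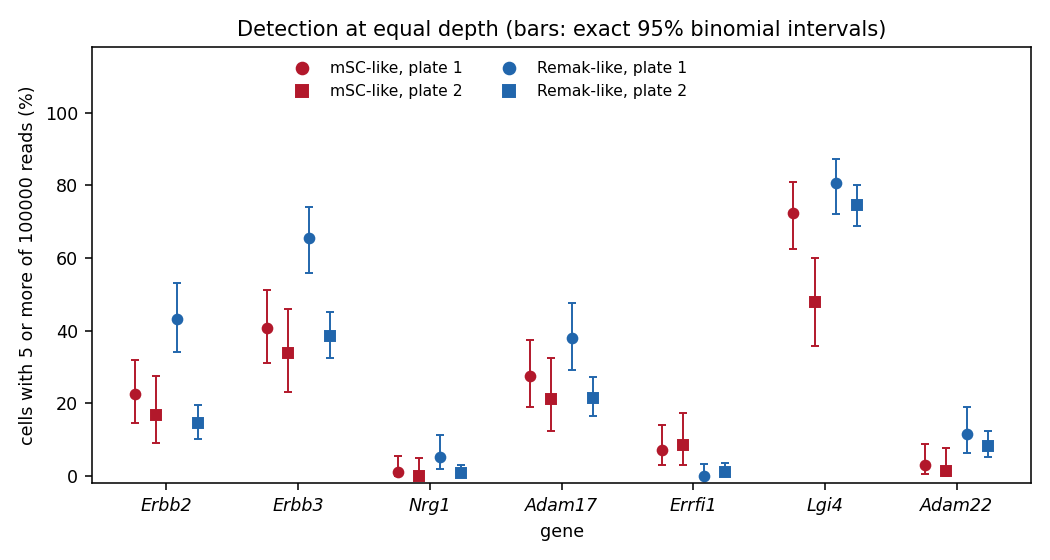
Share of cells with 5 or more of 100000 thinned reads of each gene in mSC-like (red) and Remak-like (blue) cells, with circles for plate 1, squares for plate 2 and bars for exact 95% binomial intervals. The classes are apart for *Erbb2* and *Erbb3* on plate 1 and for *Lgi4* on plate 2.

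The plates themselves differed for several genes. In Remak-like cells, plate 2 stood above plate 1 for *Lgi4* (0.59 on the log2(CPM + 1) scale), *Adam22* (1.15) and *Errfi1* (2.28), and below it for *Erbb2* (-0.56), *Erbb3* (-0.49) and *Adam17* (-1.11). In mSC-like cells the largest plate difference was that of *Adam22* (-2.31), and *Erbb2* and *Erbb3* differed by -0.13 and 0.04. Plate, depth and animals cannot be told apart here, and no test over plates is possible.

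The levels also varied among the 6 clusters, which were formed without these genes. Clusters 0, 1 and 2 made up the Remak-like class, cluster 2 with the weakest non-myelinating markers, and clusters 3 and 4 the mSC-like class. *Lgi4* was highest in cluster 0, led by *Apoe* and *Scn7a* (778 and 798 CPM on plates 1 and 2), and in cluster 1, led by *Apoe* and *Aldh1a1* (682 and 1063 CPM). Cluster 2, led by *Ednrb* and *Tagln2*, had 286 and 390 CPM, close to the 301 and 234 CPM of cluster 3, led by *Mfap5* and *Slc36a2*. Cluster 4, led by *Emid1* and *Ncmap*, had 130 and 131 CPM. The range of cluster 2 thus overlapped that of an mSC-like cluster, and cluster 4 lay below all others of the named classes.

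*Erbb3* followed another order. It was at 483 and 312 CPM in cluster 0, 331 and 187 CPM in cluster 1, 255 and 222 CPM in cluster 2, 200 and 132 CPM in cluster 4 and 86.8 and 120 CPM in cluster 3. *Erbb2* was at 171 and 228 CPM in cluster 2, 238 and 153 CPM in cluster 1 and 155 and 57.3 CPM in cluster 0, so on plate 2 cluster 0 lay below the 76.6 CPM of cluster 4. *Erbb2* was lowest in cluster 3, at 51.1 and 14.5 CPM. On plate 2, 1 cell held 99.6% of the *Erbb2* reads of cluster 3 and 1 cell 61.0% of those of cluster 1. *Nrg1* reached 13.7 and 26.2 CPM in cluster 2, and 2.19 CPM or less in the other clusters of the named classes on either plate. In cluster 2, 1 cell held 36.4% of the *Nrg1* reads on plate 1 and 44.7% on plate 2. Only 5 of 53 and 2 of 50 thinned cells there had 5 or more reads. *Errfi1* was at 27.9 and 26.9 CPM in cluster 3 on both plates, while cluster 4 had 0.291 CPM on plate 1 and 17.8 CPM on plate 2. In cluster 3, 1 cell held 28.2% of the *Errfi1* reads on plate 1 and 69.7% on plate 2. In the unnamed cluster, the 16 cells of plate 1 had *Erbb3* at 340 CPM, *Adam17* at 141 CPM, *Erbb2* at 123 CPM, *Lgi4* at 72.7 CPM and no *Errfi1* read. The 12 cells of plate 2 held 181195 reads in all, too few to place these genes.

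**Figure D5:**
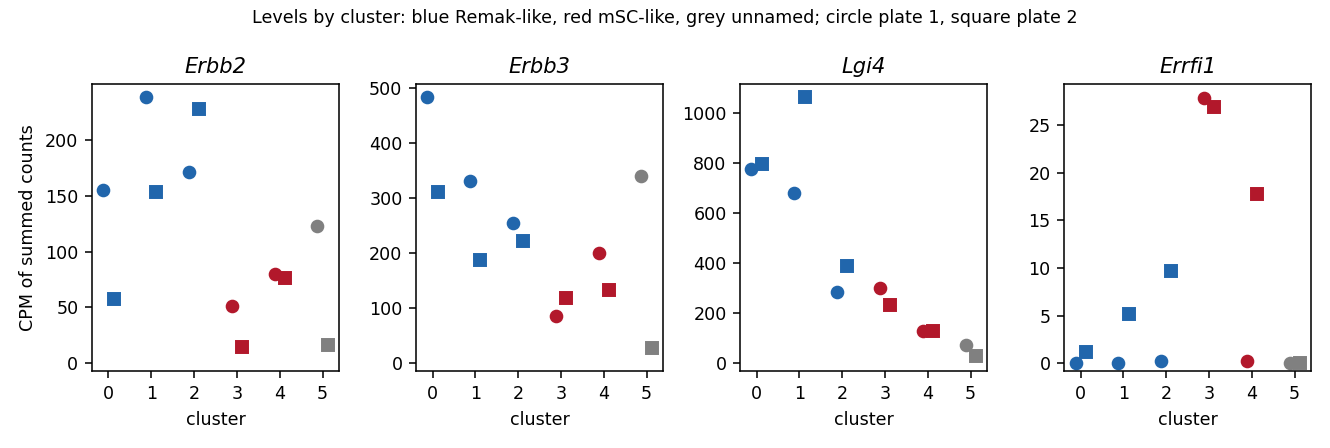
CPM of *Erbb2*, *Erbb3*, *Lgi4* and *Errfi1* in the summed counts of each cluster, with circles for plate 1 and squares for plate 2, blue for Remak-like, red for mSC-like and grey for unnamed clusters. *Lgi4* in cluster 2 (286 and 390 CPM) is near that in cluster 3 (301 and 234 CPM), and *Errfi1* is highest in cluster 3 on both plates.

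Cells with both receptor genes were counted at equal depth. *Erbb2* and *Erbb3* were both at 5 or more thinned reads in 13.3% of mSC-like and 28.3% of Remak-like cells on plate 1, and in 4.22% and 5.39% on plate 2. The product of the single shares was 9.16% and 28.4% on plate 1 and 5.71% and 5.60% on plate 2, close to the shares seen. Pearson's r of the 2 genes across cells, on the log2(reads + 1) scale, lay between -0.01 and 0.09 in the 4 sets of 71 to 241 cells, which come from 1 plate each. *Lgi4* and *Erbb3* were found together in 30.6% and 53.1% of the mSC-like and Remak-like cells of plate 1 and in 19.7% and 29.5% of those of plate 2. The products of their single shares were 29.6% and 52.7%, and 16.2% and 28.8%. *Lgi4* and *Adam22* were found together in 12 of 113 and 16 of 241 Remak-like cells (10.6% and 6.64%). That is in 12 of the 13 and 16 of the 20 cells with *Adam22*. The products of the single shares were 9.27% and 6.20%, as *Lgi4* was detected in 80.5% and 74.7% of all these cells. These are descriptions of sparse counts, and no test was made on them.

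For the 4 genes with reads in 25% or more of the kept cells of both plates, the genes with the most similar pattern across the 674 cells, after centring within plate and class, were weakly related. The 3 closest of 2914 genes were *C4b*, *Atp1b2* and *Prnp* for *Lgi4* (Pearson's r of 0.26, 0.25 and 0.25 on log2(CPM + 1), against a median of -0.00325 over the genes compared). For *Erbb3* they were *Sptan1*, *Itgb8* and *Ss18* (0.18, 0.17 and 0.17), for *Erbb2* *Ybx3*, *Cdc42se1* and *Marcksl1* (0.17, 0.16 and 0.16), and for *Adam17* *Ptcd1*, *S100a4* and *Ppic* (0.20, 0.18 and 0.18). The cells share a plate and differ in depth, and r of this size in sparse counts is no finding.

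The wider list of the pathway holds 69 genes, the 7 included, and all were in the table. After the filter on low counts 59 were tested, and 5 were called, where 4.18% of all genes tested were: 3 with the mSC-like class above (*Bace2* and *Tgfa* among them) and 2 with the Remak-like class above (*Spry2* and *Adam11*). Their median log2 ratio was -0.32, with 20 above and 39 below 0, beside a median of -0.12 over all genes tested with 5953 above and 7225 below 0.

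Among the 11 ligands of the ErbB receptors, 7 were tested, and *Tgfa*, a ligand of the EGF receptor, was called. It was at 48.0 and 14.4 CPM in mSC-like and at 0.103 and 0.286 CPM in Remak-like cells (log2 ratio 7.32 ± 1.69, adjusted p = 0.0452 in edgeR). Its reads were present in 31 of 153 and 8 of 72 mSC-like cells, and on plate 2 the top cell held 57.1% of the mSC-like reads. The call was kept in 6 of 12 alternative settings. The log2 ratio was 2.29 without the clusters that had none of their own markers among their leading genes, a setting that left out the *Mfap5* cluster. *Hbegf*, which encodes another ligand and had the highest level of the group, was at 170 and 81.5 CPM in mSC-like and 310 and 209 CPM in Remak-like cells (adjusted p = 0.333). Of the other 2 ErbB receptors, *Egfr* was listed at 0 to 0.0454 CPM, and *Erbb4* at 4.91 and 0.0369 CPM in mSC-like and 0 and 0.00649 CPM in Remak-like cells. Neither passed the filter, so the ErbB receptor reads of these cells were almost all those of *Erbb2* and *Erbb3*.

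All 6 genes of the proteases and their partners were tested, and 1 was called. *Bace2*, a relative of the beta-secretase gene *Bace1*, was at 122 and 108 CPM in mSC-like cells, against 19.8 and 14.7 CPM in the other class (log2 ratio 2.93 ± 0.54, adjusted p = 0.0148 in edgeR), and the call was kept in 9 of 12 alternative settings. Reads of *Bace2* were present in 73 of 153 and 15 of 72 mSC-like cells and in 39 of 171 and 11 of 250 Remak-like cells. On plate 2, 1 cell held 32.9% of its mSC-like reads and 1 cell 30.9% of its Remak-like reads. Its log2 ratio ran from 1.53, in the setting that left out the *Mfap5* cluster, to 3.3. *Adam10*, a sheddase, was at 679 and 475 CPM against 314 and 355 CPM (adjusted p = 0.287). *Rhbdf2*, which guides ADAM17 to the cell surface, was at 33.0 and 148 CPM against 59.1 and 33.1 CPM, in a different order on each plate (adjusted p = 0.785).

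Of 14 inhibitors and turnover genes, 13 were tested and *Spry2* was called. This feedback inhibitor of receptor tyrosine kinase signalling was at 123 and 143 CPM in mSC-like and at 592 and 397 CPM in Remak-like cells (log2 ratio -1.69 ± 0.39, adjusted p = 0.0442 in edgeR), a call kept in 4 of 12 alternative settings. *Dusp6*, a phosphatase of ERK and another feedback gene, was at 42.5 and 163 CPM against 298 and 385 CPM (adjusted p = 0.0722).

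Of 27 adaptors and signal relay genes, 26 were tested, with 11 ratios above and 15 below 0 and a median log2 ratio of -0.13. *Mapk3*, which encodes ERK1 and had the highest level of the group, was at 329 and 237 CPM in mSC-like cells, against 137 and 87.5 CPM in the other class (log2 ratio 1.53 ± 0.38, adjusted p = 0.0619 in edgeR).

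Of the 7 LGI and ADAM22-family genes, 5 were tested, and all 5 ratios were below 0. *Adam11*, a relative of *Adam22*, was called, at 0.357 and 0 CPM in mSC-like and at 42.7 and 43.9 CPM in Remak-like cells (adjusted p = 0.0352 in edgeR). The mSC-like value of plate 1 came from 11 reads in 11 cells, so the fitted log2 ratio of -8.83 depends on the prior count. Reads of *Adam11* were found in 32 of 171 and 28 of 250 Remak-like cells, and the call was kept in 6 of 12 alternative settings. The relative *Adam23* was at 11.7 and 42.4 CPM against 140 and 58.5 CPM (adjusted p = 0.396), and *Lgi1* at 42.7 and 9.33 CPM against 66.8 and 64.0 CPM (adjusted p = 0.470).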

How the data were processed

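Schwann cells of 1 age were measured, with 2 plates as biological replicates. Cells are not replicates, so counts were summed per plate and the classes compared within plates. The edgeR p-values rest on how the class difference varied between plates, with the variance moderated across genes. The authors deposited raw read counts per gene and cell. Per the labels and methods, reads were aligned with STAR (2.6.1c in the submitters' processing notes, where the build is GRCm38.p5; the methods name another version and a human build) and counted with featureCounts. No strand or overlap setting is given in the sources used here, but 5 groups of overlapping genes with 100 or more reads (25 genes, none of them among the 7) had the same count in every cell, so a read over several genes was counted for each. Of 25700 identifiers, 25664 were found in GENCODE M21. Fold changes and CPM below were computed from these counts. Total reads were 74280540 on plate 1 and 209404659 on plate 2.

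Following the study, cells with 1500 genes or more were kept and the plates integrated with 12 dimensions and a resolution of 0.5 in Seurat 5.3.0 (R 4.3.3). The classes were rebuilt without the cell labels of the study and may differ from them. No doublet caller was run, as cells were sorted singly. The 7 genes and the wider list were left out of clustering, and all others were split at random into 2 sets, each tested in classes built from the other. Variable genes were first chosen on the pooled cells; after those clusters were seen, and before any value of the 7 genes was looked at, the union of those of each plate was taken instead, and the first choice was kept as an alternative. Clusters were named by the higher mean standardised level of their markers, at least 3 of them at 50 CPM. A cluster with more markers of the other class than its own among its 10 leading genes stayed unnamed. So did one with no own marker there and a median depth under 33.3% of the plate median. Cluster 5, the 28 unnamed cells, scored higher for the non-myelinating markers (0.459 against -0.605). It stayed unnamed by the depth rule, at a ratio of 0.319 over both plates. Its 16 cells of plate 1 had a median of 267800 reads, above the plate median of 158700. The 12 cells of plate 2 had a median of 3989 reads, against 452500 for the plate.

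Sums per plate and class were tested with edgeR 4.0.16 (quasi-likelihood, TMM, minimum count of 10, plate as a block, limit 0.05). Both classes of a plate come from the same pooled animals, and their deviations from the class means correlated (r = 0.189 over 10227 genes). The SE is the ratio divided by the root of F. DESeq2 1.42.0 and 11 other settings were alternatives, 2 of them chosen after seeing the data. Scripts were tested on simulated data. The members and lists were chosen with earlier results of these data known. Named were all 7 genes, each called gene of the list and the 2 with the highest TPM of each role, and the 3 most similar genes. Of these, 1 gene of the wider list is counted in the totals and is not reported here.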

Additional observations from a re-analysis of the deposited data

Results flagged for a closer look

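Cells that fell short of 1500 genes were outside every comparison, and 5 of the 7 genes had more reads in them than the 3 that a count of 0 allows. The 44 such cells of plate 1 held 105291 reads in all, with 8 reads of *Erbb2*, 9 of *Erbb3*, 8 of *Adam17*, 27 of *Lgi4* and 161 of *Errfi1*. All 161 reads of *Errfi1* came from 1 cell, while those of *Lgi4* came from 17. The 50 such cells of plate 2 held 1034231 reads, with 10 reads of *Erbb2*, 51 of *Erbb3*, 67 of *Adam17* and 105 of *Lgi4*. With 2 plates, no group was large enough to look for a sample far from the others.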

How the results depend on the processing

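Without the replicate block (plate left out of the model), 242 genes were called in place of 551, with 0 of the 7 genes and 3 of the wider list in place of 5. DESeq2 called 1725 genes, 2 of the 7 and 10 of the list. A minimum of 2500 genes per cell gave 230 genes and 1 of the list, and one of 1000 genes gave 2 of the list. Without integration of the plates 3 of the list were called, with cells thinned to 100000 reads 1 of the 7 and 8 of the list, and with classes from all genes 2 of the list. In the alternatives chosen after seeing the data, variable genes of the pooled cells gave 276 genes and 1 of the list. The other such alternative left out clusters with no own marker among their leading genes, and gave 305 genes, 1 of the 7 and 3 of the list. The causes of these changes were not tested. No ratio of the 7 genes or of the 5 called list genes changed sign in the 12 fits. The number of the 7 with a higher level in Remak-like cells was 5 on both plates together and 5 to 6 when 1 plate was left out. For detection these numbers were 5, and 5 to 6, but the genes were not the same. *Adam17* (21.1% and 21.6% in mSC-like and Remak-like cells on plate 2) stood in place of *Erbb2*. The number for detection was 4 with 10 or more thinned reads, with cells thinned to 50000 reads or without integration of the plates. With 1 plate, no test across genes could be fitted. The depth of plate 1, the fewer detected genes per cell on plate 2 and the share of reads held by single cells limit what can be said of *Nrg1*, *Errfi1* and *Adam22*.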
